A study of Mus musculus with 4 samples.

Results

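The HoxB cluster is a row of homeobox genes on mouse chromosome 11 that pattern the body axis, and Meis and Prep are transcription factors known to act on such genes together with Hox and Pbx proteins. The peaks of both factors were placed along this cluster in wild-type C57BL/6 mouse embryos. The members were chosen by position: every peak of either list lying wholly inside chr11:96050000-96240000 in the mm9 build. There were 18 of them, 14 of the 5686 Meis peaks and 4 of the 3331 Prep peaks. The window was picked from these same lists with its peaks already known. Their number, scores, places and overlaps are therefore given as a description, with no test.

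The material was the trunk of embryos at embryonic day 11.5, dissociated to single cells, cross-linked and sheared before immunoprecipitation and sequencing (ChIP-seq). Of the 4 libraries, 1 was precipitated with antibodies against Meis1/2 (K830, K844) and 1 with an antibody against Prep1/2 (N15 Santa Cruz). The other 2 are inputs without antibody and were not analysed here. No treatment or mutation is named for any library. The number of embryos behind a library is not given in the sources used here, and with 1 library per antibody nothing measures the spread between embryos. The trunk holds many cell types, so a peak does not say in which of them the factor was bound. Peak lists carry no expression values, so the tissue label could not be checked against marker genes.

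Hox genes are switched on in the order in which they lie on the chromosome, from the end active in the hindbrain and neck to the end active in the trunk. Meis and Prep belong to the TALE class of homeodomain proteins. Both pair with Pbx, and such pairs can join Hox proteins on DNA, so that Hox genes are at once partners and targets. Sorted by their lower coordinate in the RefSeq gene table, the genes run from the hindbrain end as Hoxb1, Hoxb2, Hoxb4, Hoxb3, Hoxb5, Hoxb6, Hoxb7, Hoxb8 and Hoxb9, because the long gene model of Hoxb3 spans Hoxb4. Hoxb1 is known for the identity of the hindbrain segment that gives rise to facial motor neurons, and Hoxb2 acts in the same part of the hindbrain. Hoxb3 and Hoxb4 are expressed from the posterior hindbrain backwards. Hoxb5, Hoxb6, Hoxb7, Hoxb8 and Hoxb9 are expressed in the neck and trunk and take part in patterning the vertebrae and spinal cord. The microRNA gene Mir10a and the long non-coding RNA genes Hoxb3os and Hoxb5os lie between these 9 genes. That table belongs to a later build (GRCm38.p6) and was used for the order of the genes only, so no peak was assigned to a gene, exon or promoter. Peaks are numbered from the Hoxb1 end, which has the higher coordinates on the chromosome, to the Hoxb9 end.

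No mm9 sequence was used here, so the letters under the peaks are not shown. The RefSeq promoter table held 3 of the 9 genes: Hoxb1, Hoxb4 and Hoxb8. Each entry runs from 250 bases before to 50 bases after the start of the gene. The Hoxb1 and Hoxb8 entries are printed because they are the promoters in which a motif was found, and because Hoxb1 is known to maintain its own expression through Pbx-Hox sites close upstream of its start. In GRCm38.p6 they lie at chr11:96365508-96365807 and chr11:96281655-96281954, both on the + strand, and these positions cannot be set against the mm9 positions of the peaks. Capitals mark matches to TGATNNAT, a loose Pbx-Hox motif.
Hoxb1: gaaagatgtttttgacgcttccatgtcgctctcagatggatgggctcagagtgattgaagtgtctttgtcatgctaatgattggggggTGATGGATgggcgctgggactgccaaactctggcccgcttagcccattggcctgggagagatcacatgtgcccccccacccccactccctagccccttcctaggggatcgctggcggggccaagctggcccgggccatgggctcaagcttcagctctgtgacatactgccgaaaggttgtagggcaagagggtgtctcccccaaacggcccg
Hoxb8: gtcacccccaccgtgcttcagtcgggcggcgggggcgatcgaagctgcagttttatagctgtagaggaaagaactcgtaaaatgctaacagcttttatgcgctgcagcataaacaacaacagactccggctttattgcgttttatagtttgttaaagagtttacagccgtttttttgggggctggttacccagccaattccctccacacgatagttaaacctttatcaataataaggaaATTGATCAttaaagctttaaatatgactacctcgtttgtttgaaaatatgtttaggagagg

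The motif TGATNNAT was added after these sequences had been seen. It was found 162 bases before the start of Hoxb1 on the + strand, and in Hoxb8 on the - strand with its first printed base 11 bases before the start. It was present on either strand in 8.85% of all 32851 RefSeq promoters. The 3 motifs chosen earlier matched none of the 3 promoters on either strand. They were TGACAG, the core of Meis and Prep sites (19.2% of all promoters), TGATTGAC, for Pbx with Meis or Prep (0.77%), and TGATTNAT, for Pbx with Hox (3.22%), whose matches are all matches of TGATNNAT too. A match is a run of letters, not a bound site, and these windows do not show what lies under the peaks.

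The Meis peaks spanned 80.6 kb between the centres of Meis peak 1 and Meis peak 14. The window was empty for 26.7 kb beyond Meis peak 1 on the Hoxb1 side and for 82.5 kb beyond Meis peak 14 on the Hoxb9 side. The scores are the authors' values from their peak caller, with no stated scale, and are used here to order peaks within a list. A peak's place counts down from the highest score, which has place 1. Its percentile is its rank from the lowest score as a percentage of the list, with equal scores given their mean rank. By these measures the Meis peaks of HoxB fell in 3 stretches, set apart after their values were seen: 3 high-scoring peaks at the Hoxb1 end, 9 mostly lower ones in the middle, and 2 of the highest at the Hoxb9 end.

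**Figure D1:**
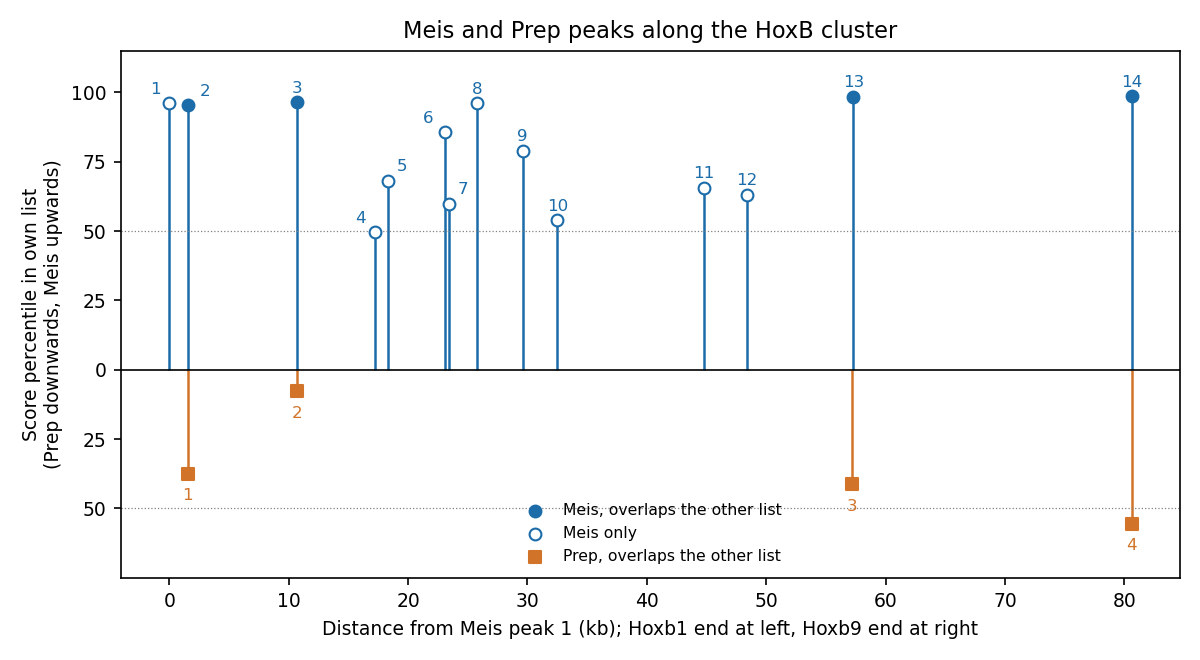
Meis peaks (circles, upwards) and Prep peaks (squares, downwards) along the HoxB cluster. The horizontal axis gives the distance of each peak centre from Meis peak 1 in kb, with the Hoxb1 end at the left, and the vertical axis the score percentile within the peak's own list, with dotted lines at 50. Filled symbols overlap a peak of the other list. All 4 Prep peaks sit under Meis peaks above the 95th percentile, and Meis peaks 4 to 12 have no Prep peak under them.

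At the Hoxb1 end, Meis peak 1 lay at 96213144 to 96213320 on chromosome 11. Its score was 23.8, which put it at place 217 of 5686 (percentile 96.2). It overlapped no Prep peak, although the centre of the nearest one was only 1.55 kb away. Meis peak 2, at 96211530 to 96211744, scored 22.5 (place 263, percentile 95.4) and overlapped Prep peak 1. Meis peak 3, at 96202429 to 96202583, lay 10.7 kb from Meis peak 1. It scored 24.4 (place 206, percentile 96.4) and overlapped Prep peak 2. The 3 peaks of this end thus differed by only 1 percentile point, and 2 of them were shared.

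The middle of the row held Meis peaks 4 to 12, from 17.2 to 48.4 kb from Meis peak 1. None overlapped a Prep peak. Over the whole Meis list 7.16% did, and 5.08% outside the highest-scoring 10%, so with so few peaks nothing is read from this. The nearest Prep centre was between 6.46 kb (Meis peak 4) and 21.8 kb (Meis peak 10) away. Their percentiles ran from 49.5 to 96.1 with a median of 65.7. The stretch free of Prep peaks, from Prep peak 2 to Prep peak 3, was 46.1 kb long. It holds no Prep peak by the way it was cut, between neighbouring Prep peaks. Over the whole Prep list the median distance from a centre to the nearest other Prep centre was 85.9 kb.

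Within that stretch 1 peak stood out by score. Meis peak 8, at 96187344 to 96187550, scored 23.5 (place 225, percentile 96.1), close to the values of the Hoxb1 end. Its nearest Prep centre was 15.1 kb away. Over the whole list only 25.8% of the highest-scoring 10% of Meis peaks overlapped a Prep peak. Meis peak 6, at 96190013 to 96190208, followed with a score of 16.2 (percentile 85.7). Meis peak 9, at 96183467 to 96183702, scored 14.5 (percentile 79). The remaining 6 peaks lay between percentiles 49.5 and 68.2. From the Hoxb1 end they were Meis peak 4 at 96195930 to 96196155 (score 10.7), Meis peak 5 at 96194864 to 96195019 (12.5) and Meis peak 7 at 96189698 to 96189906 (11.5). Towards the Hoxb9 end Meis peak 10 at 96180588 to 96180778 scored 11, Meis peak 11 at 96168276 to 96168515 scored 12.2 and Meis peak 12 at 96164767 to 96164925 scored 11.9. Meis peak 4 was the lowest of the window, at place 2816, and 167 peaks of the list carry its score.

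At the Hoxb9 end stood the highest Meis scores of the window. Meis peak 13, at 96155887 to 96156054, scored 30 (place 92, percentile 98.4), and Meis peak 14, at 96132510 to 96132663, scored 30.8 (place 82, percentile 98.6). They were 57.3 and 80.6 kb from Meis peak 1, and the 23.4 kb between their centres was the longest gap of the row. Both were shared, with Prep peaks 3 and 4.

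The Prep peaks of the window ranked far lower in their own list. Prep peak 1, at 96211555 to 96211810, scored 7.88 (place 2037 of 3331, percentile 37.5). Prep peak 2, at 96202317 to 96202693, scored 5.25 (place 2916, percentile 7.6). Only 8 Prep peaks of the whole list score lower than Prep peak 2, and 490 carry the same score. Prep peak 3, at 96155888 to 96156202, scored 8.54 (place 1918, percentile 41.2), and Prep peak 4, at 96132479 to 96132695, scored 13.1 (place 1474, percentile 55.5). Prep peak 4 was the only 1 of the 4 above the middle of its list. The lowest score listed for Prep is 5.03, so weaker Prep signal at the 10 Meis peaks without a partner would not appear.

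**Figure D2:**
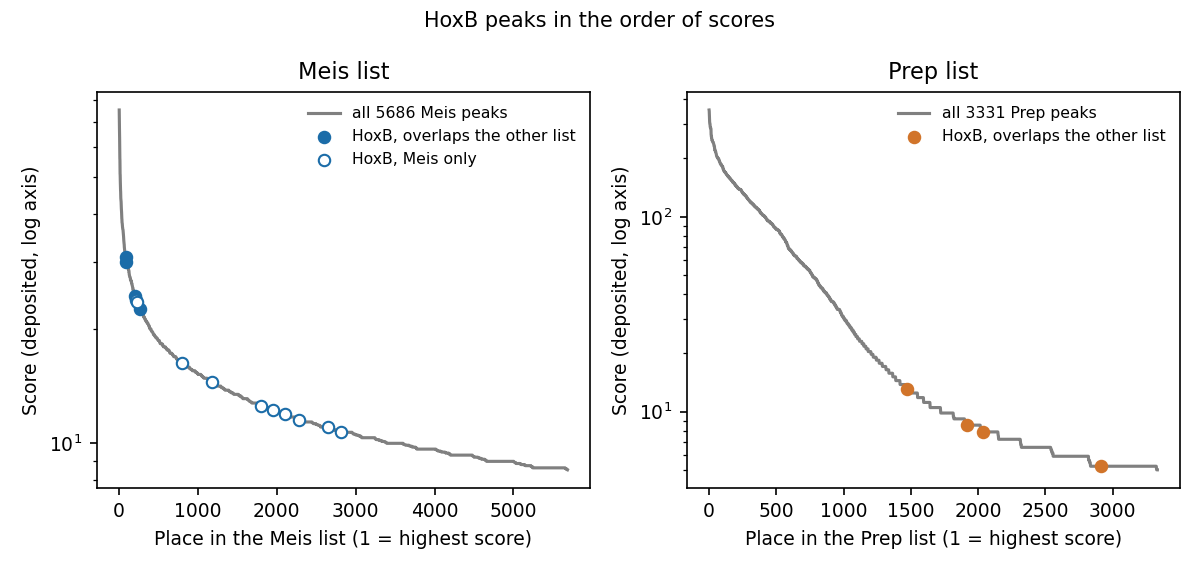
Deposited score (log axis) against place in the list for all 5686 Meis peaks and all 3331 Prep peaks (grey lines), with the HoxB peaks as circles. Filled circles overlap a peak of the other list. Of the Meis peaks 6 lie between places 82 and 263, at the steep start of the curve, while the Prep peaks lie between places 1474 and 2916, on its flat part.

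The share of peaks found in both lists was set beside that of the whole lists. An overlap of 1 bp or more made a peak shared. Of the 14 Meis peaks of HoxB 4 were shared, which is 28.6% (95% exact binomial interval 8.39 to 58.1%), against 7.16% over the whole Meis list. Of the Prep peaks 4 of 4 were shared (exact interval 39.8 to 100%), against 12.2% over the whole Prep list. These intervals cover counting error only. They treat neighbouring peaks of 1 library as independent and do not allow for the choice of the window, which was made on these peaks. Whether an interval holds the share of the whole list is therefore not read as a test. The count depended on the weaker Prep peaks. With the highest-scoring 50% of each list 1 HoxB Meis peak was shared (7.14% of 14), namely Meis peak 14, against 3.13% of the 2843 Meis peaks kept.

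High-scoring Meis peaks are shared more often throughout the list, so the HoxB peaks were also split by score. This split was made after the data were seen. Meis peaks 1, 2, 3, 8, 13 and 14 belonged to the top 10% of Meis scores, and 4 of these 6 were shared (66.7%). Over all 569 Meis peaks of that part of the list the share was 25.8%. With so few HoxB peaks, picked with their overlaps known, nothing is read from the difference. Among the 8 lower-scoring HoxB peaks 0 were shared, for which the upper limit at 3 counts is 37.5%, and over the rest of the list the share was 5.08%. Every shared Meis peak of HoxB thus came from the top 10% of scores, while 35.9% of all 409 overlapping pairs did. The Prep partners of the 147 pairs from that part of the list had a median percentile of 37.5 (quartiles 19.3 and 49.5). The median over all 408 shared Prep peaks, whatever the rank of the Meis partner, was also 37.5. The partners in HoxB had a median of 39.3 and ran from 7.6 to 55.5.

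Within the HoxB pairs the orders of the Meis and Prep scores matched in part. The pairs at the Hoxb9 end scored higher than those at the Hoxb1 end in both lists. Meis peak 14 and Prep peak 4 were the highest of their kind, followed by Meis peak 13 and Prep peak 3. At the Hoxb1 end the order was crossed, since Meis peak 3 scored above Meis peak 2 and its partner Prep peak 2 scored below Prep peak 1. No coefficient is given for 4 pairs.

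The partners overlapped over most of the Meis peak, with centres from 0.5 to 74.5 bp apart. The centres of Meis peak 14 and Prep peak 4 were 0.5 bp apart, and those of Meis peak 3 and Prep peak 2 were 1 bp apart. In both of these pairs the Prep peak covered the whole Meis peak and reached nearly equally far beyond it on either side. It ran 32 bp beyond Meis peak 14 on the Hoxb1 side and 31 bp on the Hoxb9 side, and for Meis peak 3 the reach was 110 and 112 bp. The other pairs were offset. The centre of Prep peak 1 lay 45.5 bp from that of Meis peak 2, and the centre of Prep peak 3 lay 74.5 bp from that of Meis peak 13, both towards Hoxb1.

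Prep peak 3 ended 1 bp short of covering Meis peak 13 and overlapped it over 167 bp (99.4% of the Meis peak). Prep peak 1 overlapped Meis peak 2 over 190 bp (88.4%). Over all pairs of the lists the median distance of the centres was 28.5 bp (quartiles 13 and 53 bp), so 2 of the HoxB pairs lay below the lower quartile, 1 between the quartiles and 1 above the upper quartile. The Prep peak covered the whole Meis peak in 2 of 4 HoxB pairs and in 50.9% of all pairs.

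**Figure D3:**
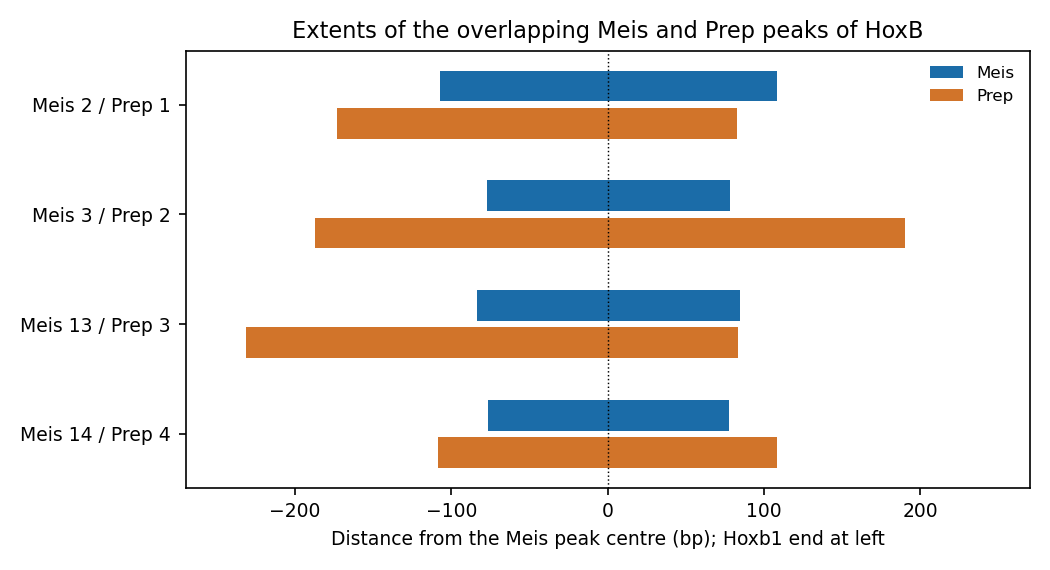
Extents of the 4 overlapping pairs. Bars show the length of each Meis peak (blue, upper) and Prep peak (orange, lower) as the distance in bp from the Meis peak centre (dotted line), with the Hoxb1 end at the left. The bars of Meis peaks 3 and 14 sit in the middle of their Prep peaks, whereas Prep peaks 1 and 3 extend mainly towards Hoxb1.

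Prep peaks were the wider partner in 4 of 4 pairs, as in 85.8% of all pairs. Prep peak 4 was 217 bp wide, Prep peak 1 256 bp, Prep peak 3 315 bp and Prep peak 2 377 bp. The highest-scoring Prep peak of the window was thus the narrowest and the lowest-scoring the widest. The Meis peaks were 154 to 240 bp wide with a median of 193.5 bp, against 209 bp over the whole list. Meis peaks 14, 3, 13 and 2, the shared ones, were 154, 155, 168 and 215 bp wide. The 10 Meis-only peaks of HoxB were 156 to 240 bp wide with a median of 201.5 bp, so the widths of shared and Meis-only peaks overlapped.

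The Meis peaks of HoxB were closely spaced. The distance between neighbouring centres ran from 0.308 to 23.4 kb with a median of 3.86 kb over 13 gaps, against a median of 177 kb over the whole list. Of the 14 peaks 13 had another Meis centre within 10 kb (92.9%), against 13.8% of the whole list. The exception was Meis peak 14, the highest-scoring of the window. Both comparisons largely restate the number of peaks, since 14 peaks inside a window of 190 kb must lie close together. Meis peaks 6 and 7 were the closest neighbours, with 106 bp between the end of one and the start of the other, and in the whole list 28 of 5666 neighbouring pairs had centres under 500 bp apart. Their scores of 16.2 and 11.5 differed, and neither had a Prep partner.

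Prep peaks were spread more thinly. Of the 4 Prep peaks 2 had another Prep centre within 10 kb, Prep peaks 1 and 2 at 9.18 kb, against 17.1% of the Prep list. Prep peaks 3 and 4 were 23.5 kb apart. A Prep centre lay within 5 kb of 5 of the 14 Meis peaks (35.7%, exact interval 12.8 to 64.9%), namely the 4 shared ones and Meis peak 1, against 9.36% of the whole Meis list. This count mostly repeats that of the shared peaks, and its interval has the same limits and is not a test.

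Within a further 190 kb of the window Meis peaks were listed on the Hoxb1 side only, and Prep peaks on neither side. The first Meis peak beyond the Hoxb1 side lay 28.9 kb from the edge of the window, at 96268870 to 96269054, and scored 12.6 (percentile 68.5). The first beyond the Hoxb9 side lay 603 kb away, at 95446621 to 95446833, with a score of 12.6 (percentile 68.7). In equal lengths of 190 kb on either side there were 3 and 0 Meis peaks, and 0 and 0 Prep peaks. The nearest Prep peaks outside the window were 451 kb beyond the Hoxb1 side, at 96691344 to 96691494 with a score of 171, and 852 kb beyond the Hoxb9 side, at 95198044 to 95198293 with a score of 14.4. None of these 4 outer peaks was shared, as is the case for most peaks. Over the whole lists 7.16% of Meis and 12.2% of Prep peaks were shared.

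For scale, the chromosomes were divided into 13870 tiles of 190 kb, the length of the window. A tile held 0.41 Meis peaks and 0.24 Prep peaks on average. Only 2 tiles held 14 or more Meis peaks. One was a tile of chromosome 11 with 15 Meis peaks, 13 of them HoxB peaks. The other was a tile of chromosome 6, the chromosome that carries the HoxA cluster, with 21 Meis and 4 Prep peaks. For Prep, 83 tiles (0.598%) held 4 or more peaks. The window was chosen with its peaks known and the tiles were not, which can raise its count relative to theirs. That tile of chromosome 11 held 15 Meis and 3 Prep peaks, against 14 and 4 in the window.

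**Figure D4:**
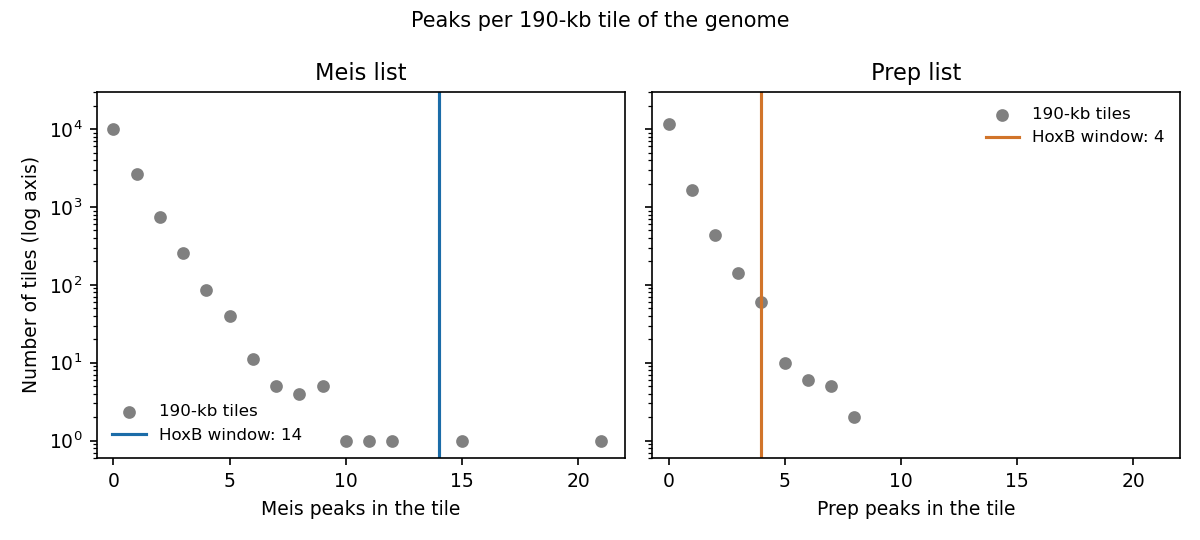
Number of 190-kb tiles of the genome (log axis) against the number of Meis peaks or Prep peaks in the tile (grey points), with the count of the HoxB window as a vertical line. The line at 14 Meis peaks has 2 tiles to its right, at 15 and 21. The line at 4 Prep peaks meets the point for 60 tiles, and 83 of the 13870 tiles (0.598%) hold 4 or more Prep peaks.

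A dense run was taken as 4 or more Meis peaks, none more than 10 kb from the next. Meis peaks 1 to 10 formed the HoxB run, at 96180588 to 96213320, which came second of 13 by number of peaks. Meis peaks 11, 12, 13 and 14 fell outside it. Over its 32.7 kb it held 3.06 peaks per 10 kb, and its median percentile was 82.4. Of the 3 other runs with most peaks 2 were denser and 1 was less dense. On chromosome 6, the stretch from 52108281 to 52128618 had 11 peaks at 5.41 per 10 kb, that on chromosome 18, from 84236664 to 84256016, had 9 at 4.65, and a further one on chromosome 6, from 52140862 to 52176538, had 9 at 2.52.

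The HoxB run had 2 of 10 peaks shared, both at its Hoxb1 end. These 3 runs had 3 of 11, 3 of 9 and 1 of 9 shared. Over all 12 other runs the share went from 0 to 80%, with 0 shared in 6 of them, against 20% in the HoxB run. The top 10% of scores took in 4 of the 10 HoxB peaks, 5 of 11 and 2 of 9 of the chromosome 6 peaks, and 7 of 9 of the chromosome 18 peaks. The top score of the HoxB run was 24.4. It was 43.1 and 20.1 on chromosome 6 and 50.8 on chromosome 18. The Prep partners in the HoxB run had percentiles of 7.6 and 37.5. In the 3 runs named they lay between 7.6 and 33, and over all 12 other runs between 7.6 and 78.9. The differences between runs were not tested.

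**Figure D5:**
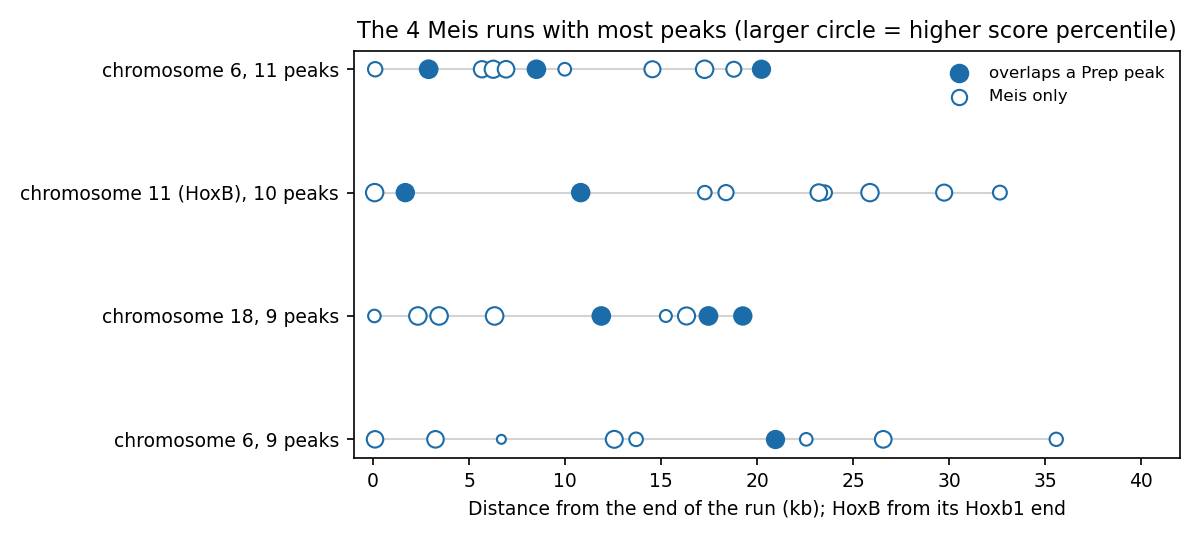
The 4 Meis runs with most peaks. Each circle is a Meis peak at its distance in kb from the end of its run (the Hoxb1 end for HoxB), filled where it overlaps a Prep peak, and larger for a higher score percentile. In the HoxB run the 2 filled circles are Meis peaks 2 and 3, near its Hoxb1 end, and the 7 peaks after them are Meis only.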

How the data were processed

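ChIP-seq peak lists were used for 2 libraries, 1 with antibodies to Meis1/2 and 1 with an antibody to Prep1/2. Reads were aligned with BWA to mm9, per the submitters' processing notes. Each list gives a position and a score per peak, and the deposited score is the authors' own caller value, per the file headers, with no stated scale. Peak names carry the tag "pics". The sources used here give no aligner version, caller settings, input use or read totals, so the depth behind a peak is unknown.

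Starts were raised by 1, as BED files count from zero, although the headers do not state this. Places, percentiles, overlaps (at least 1 bp), centre distances, runs and 190-kb tiles were computed with Python 3.11.15, scipy 1.17.1, pandas 2.3.3 and numpy 2.4.6. The overlap and run steps were tested on simulated lists. Motifs were sought on both strands of RefSeq promoters of GRCm38.p6. All peaks of the window are named. Outside it, the nearest peak of each list on either side and the 3 other runs with most peaks are named. No test was made, since each antibody has 1 library and the members, lists and window were chosen with earlier results of these data known. Alternatives were other window edges, score limits, list lengths, overlap rules, gaps and distances.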

Additional observations from a re-analysis of the deposited data

How the results depend on the processing

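The counts and medians for HoxB were recomputed under other settings, and most counts kept their value or stayed within 1.5 times of it. Moving each edge of the window by 10 kb, in or out, left the 14 Meis and 4 Prep peaks as they were. That could not have come out otherwise, since no peak of either list lies within 10 kb of an edge. The medians were recomputed only in this way, so nothing here tests them. All overlap rules gave 4 shared peaks in either list. With the highest-scoring 50% of each list, equal scores being kept in the authors' order, 14 Meis peaks were kept (13 without the scores equal to the list median, which drops Meis peak 4, a setting added after the data were seen). Only 1 Prep peak was left, so that 1 Meis peak and 1 Prep peak were shared. The lowest score of that Prep list was 10.5, above 3 of the 4 Prep peaks of the window. Gaps of at most 5 kb gave a longest run of 7 Meis peaks and gaps of at most 20 kb one of 13. With a distance of 10 kb the Meis peaks with a Prep centre nearby numbered 8. The split by score, added after the data were seen, gave 4 shared Meis peaks in the highest-scoring 10% and 0 below it. The looser Pbx-Hox motif was found in 2 of the 3 promoters, against 0 with the motifs chosen first. It was added after those sequences had been seen, so this change tests nothing. Of all promoters 8.85% held it, against 3.22% for the stricter Pbx-Hox motif.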
